A study of Mus musculus with 2 samples.

Results

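Integrins are cell-surface receptors made of 1 alpha and 1 beta subunit, and the messenger RNAs of 10 of these subunits were compared between 2 RNA-seq libraries of the mouse colon carcinoma line CT26. The 10 genes were Itga2, Itga3, Itga5, Itga6, Itgav, Itgb1, Itgb3, Itgb4, Itgb5 and Itgb7. They were taken by gene symbol from a table of 54680 loci, and all 10 were found, each at 1 locus. The table held 27 integrin subunit genes in all, and the other 17 are given as counts or, where they reached the expression minimum, by name.

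Integrins join the matrix outside the cell to the actin or keratin cytoskeleton inside it. The alpha subunit largely sets which ligand is bound, and the beta tail recruits talin and kindlin, which switch the receptor to its active form. The beta1 subunit pairs with many alpha subunits, whereas beta4 pairs with alpha6 alone and beta5 with alphaV alone. The beta7 subunit pairs with alpha4 or alphaE and is known mainly from lymphocytes that home to the gut.

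In the group called CT26shSetdb1, a lentivirus delivered a hairpin RNA that targets the messenger of Setdb1, a methyltransferase for lysine 9 of histone H3. The other group, CT26shCtrl, had the empty virus vector and a genotype labelled wild type. Both were infected cultures of the same line grown for 6 days, by which time the knockdown cells had changed in phenotype. With 1 library a group there is no replicate check: the values describe these 2 libraries, and no p-value between conditions can be given.

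Whole reads could be recovered from every deposited value above 0. The empty-vector library held 18421604 reads and the shSetdb1 library 19045830, a ratio of 1.03. Setdb1 was at 10.4 FPKM (fragments divided by gene model length and by a depth that was the same number for both libraries) with the empty vector and 2.47 FPKM with shSetdb1, or 23.7% of the empty-vector level. These are 1340 and 317 reads. The Setdb1 model overlaps that of Cers2 on the other strand, which had 12233 and 8639 reads, and the strand setting of the counting is not given. Below, a log2 ratio is that of (FPKM + 1), shSetdb1 over empty vector, a scale on which differences of weakly expressed genes look smaller than they are. A read ratio compares the reads of a gene, each over the total of its library, and stands with its 95% exact (Clopper-Pearson) interval. These intervals cover counting error only, since there was 1 library a group. They treat each read as independent, which PCR copies are not, so they can be too narrow even for counting error. A gene that reached 1 FPKM in either library is called expressed here (10671 genes), and one that also differed 2-fold on the log2 scale is called higher or lower. In cultures sequenced in bulk, fewer cells with a transcript and less of it per cell cannot be told apart.

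The labelled cell type was checked against its markers first. Of 8 colon epithelial markers, 3 were expressed (Krt18, Krt19 and Krt20), with log2 ratios from 1.23 to 2.59. Krt19 reached 1 FPKM with shSetdb1 only, with 1 read with the empty vector and 53 with shSetdb1. Below the minimum were Krt8 with 7 and 8 reads, Vil1 with 1 and 7, and Cdx2 with 5 and 18. The adhesion genes Epcam and Cdh1 had 0 reads in both libraries, where 3 reads would be 0.0785 FPKM for Epcam and 0.0350 FPKM for Cdh1. Of 6 mesenchymal markers, 5 were expressed, with log2 ratios from -0.15 for Cdh2 (791 and 699 reads) to 0.89 for Pdgfra. Pdgfra (94 and 333 reads) and Des (69 and 113 reads) reached 1 FPKM with shSetdb1 only. Vim was at 752 FPKM with the empty vector and 835 FPKM with shSetdb1, and Pdgfrb at 13.5 and 14.6 FPKM. Acta2 had 1 read with the empty vector and 0 with shSetdb1. The summed level of the 8 epithelial markers was 43.2 FPKM with the empty vector and 128 FPKM with shSetdb1. Most of it came from Krt18, at 37.7 and 90.0 FPKM, and Krt20, at 5.07 and 35.6 FPKM. Of 7 leukocyte markers, 1 was expressed, Cd68, a lysosomal protein of macrophages that other cells can also make, at 10.4 FPKM with the empty vector and 100.2 FPKM with shSetdb1. The leukocyte marker Ptprc had 0 reads with the empty vector and 4 with shSetdb1, Cd3e and Adgre1 had 0 in both, and the summed level of the 7 was 11.5 and 101 FPKM. The 6 endothelial and platelet markers had 5 reads with the empty vector and 6 with shSetdb1 in all. The part of these marker differences in the integrin values was not tested.

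Of the 10 subunits, 8 were expressed and 2, Itga2 and Itgb3, were close to 0. All 4 expressed alpha subunits (Itga3, Itga5, Itga6 and Itgav) were higher with shSetdb1, and 3 of the 4 expressed beta subunits (Itgb1, Itgb5 and Itgb7) were lower, the exception being Itgb4. At 2-fold, 2 of the 8 were called higher, Itga5 and Itgb4, and 0 lower, while among all expressed genes 6.81% were called higher and 4.85% lower. The median log2 ratio of the 8 was 0.38, beside -0.00039 for all expressed genes. The 4 alpha subunits had a median of 0.61 and the 4 beta subunits one of -0.46. The read ratio was above 1 for 5 of the 8, beside 46.9% of all expressed genes, and its interval lay above 1 for 5 and below 1 for 3. Since 75.8% of all expressed genes had an interval that left out 1 (35.2% above and 40.6% below), such an interval sets no subunit apart.

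**Figure D1:**
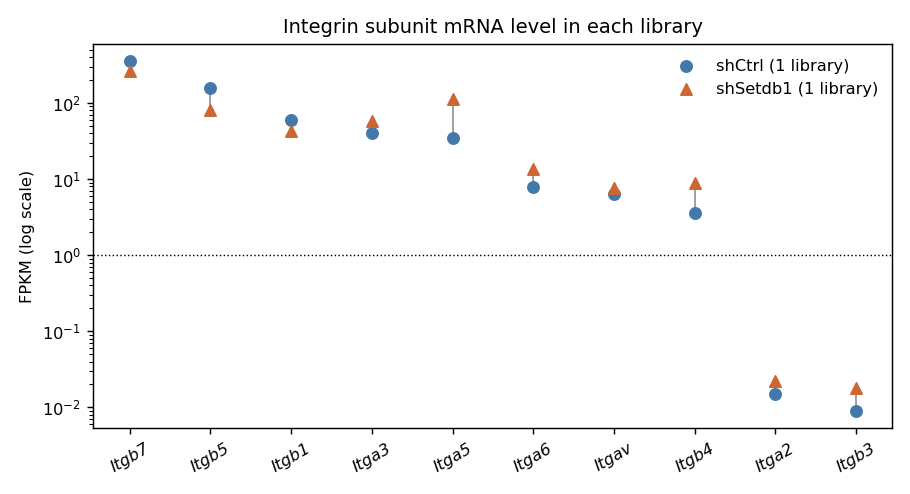
Level of each of the 10 integrin subunits in FPKM (log axis) in the empty-vector library (circles) and the shSetdb1 library (triangles), 1 each, ordered by the empty-vector level, with a dotted line at 1 FPKM. Itgb7 is highest in both libraries, Itga5 has the widest gap among the expressed subunits, and Itga2 and Itgb3 lie far below 1 FPKM.

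Itga5 encodes the alpha5 subunit, which pairs with beta1 as the main fibronectin receptor. The gene (ENSMUSG00000000555) is on chromosome 15, minus strand, at positions 103344286 to 103366763 of the GRCm38 assembly. It was at 35.1 FPKM (3247 reads) with the empty vector and 112 FPKM (10352 reads) with shSetdb1. The log2 ratio of 1.65 was higher than that of 98.0% of expressed genes, and the read ratio was 3.08 (2.96 to 3.21). No other subunit among the 8 had so large a difference in either direction.

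Itgb5 encodes the beta5 subunit, which with alphaV binds vitronectin, and it had the lowest ratio of the 8. It (ENSMUSG00000022817) is a plus-strand gene of chromosome 16, at 33829665 to 33949338. It was at 159 FPKM (10590 reads) with the empty vector and 80.3 FPKM (5342 reads) with shSetdb1, or 50.4% of the empty-vector level. The log2 ratio of -0.98 was just short of the 2-fold threshold, and 5.10% of expressed genes had a lower one. The read ratio of 0.488 (0.472 to 0.504) had an interval on both sides of 2-fold, and the gene was called lower when the libraries were scaled by their own read totals. The authors' table gives 1 other locus the same protein match, with 55 reads with the empty vector and 36 with shSetdb1.

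Itgb7 encodes the beta7 subunit and had the highest level of all 27 integrin genes in both libraries. It (ENSMUSG00000001281) is a minus-strand gene of chromosome 15, at 102215995 to 102231944. Its level was 351 FPKM (18209 reads) with the empty vector, the 155th highest of the 54680 loci, and 261 FPKM (13530 reads) with shSetdb1, the 216th highest. It was lower with shSetdb1, at a log2 ratio of -0.43, and the read ratio was 0.719 (0.703 to 0.735). How reads that map to several places were counted is not given in the sources used here.

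The 250 bases before the RefSeq start site (GRCm38.p6) are printed for these 3 genes, because they hold the highest ratio, the lowest ratio and the highest level among the subunits. Each runs 5′ to 3′ on the strand of its gene, and capitals mark matches to any of the 6 motifs named next. The windows are chr15:103366792-103367041 (minus strand) for Itga5, chr16:33829415-33829664 (plus strand) for Itgb5 and chr15:102231936-102232185 (minus strand) for Itgb7. The RefSeq start of Itga5 lies outside the gene model given above. Some of the bases checked after it also lay outside the model, so their absence from annotated transcript starts adds nothing further. The Itgb7 window overlaps the end of its gene model. Distances to the start site are thus less sure for these windows.
Itga5: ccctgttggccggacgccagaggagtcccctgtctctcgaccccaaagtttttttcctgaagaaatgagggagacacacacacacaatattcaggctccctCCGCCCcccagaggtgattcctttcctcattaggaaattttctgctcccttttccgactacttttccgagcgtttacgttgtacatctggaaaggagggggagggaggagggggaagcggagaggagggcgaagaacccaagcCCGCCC
Itgb5: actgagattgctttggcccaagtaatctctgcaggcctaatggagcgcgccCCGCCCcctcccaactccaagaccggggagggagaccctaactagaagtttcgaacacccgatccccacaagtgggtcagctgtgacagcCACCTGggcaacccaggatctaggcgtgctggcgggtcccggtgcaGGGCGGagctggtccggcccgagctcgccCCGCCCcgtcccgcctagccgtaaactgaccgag
Itgb7: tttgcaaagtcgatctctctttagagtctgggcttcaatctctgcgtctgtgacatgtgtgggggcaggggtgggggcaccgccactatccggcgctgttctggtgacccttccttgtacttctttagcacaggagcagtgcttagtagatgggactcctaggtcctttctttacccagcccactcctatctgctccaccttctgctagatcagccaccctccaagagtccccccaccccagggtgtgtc
The motifs, searched on both strands, were the GC box GGGCGG, the AP-1 motif TGANTCA, the hypoxia response core ACGTG, an interferon response core GAAANNGAA, the E-box bound by SNAI factors CAGGTG, and an NF-kappaB motif GGGANTTTC. The Itga5 window held 2 GC boxes and no other match. The Itgb5 window held 3 GC boxes and 1 E-box, none of which overlapped another. The Itgb7 window held none of the 6. Of 32851 such windows in the RefSeq table, 32.7% held a GC box, 17.2% the E-box, 16.6% the hypoxia core, 7.13% the interferon core, 6.75% the AP-1 motif and 0.941% the NF-kappaB motif. CG dinucleotides numbered 11 in the Itga5 window, 18 in that of Itgb5 and 5 in that of Itgb7, beside a median of 6 over all windows. These matches describe the letters of the windows and do not show binding. The table held windows for 7 of the 10 genes, and Itga6, Itgb3 and Itgb4 were not matched.

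The shared partner Itgb1 was lower with shSetdb1 while its main alpha partners were higher. Itgb1 (ENSMUSG00000025809, chromosome 8, 128685654 to 128733200, plus strand) was at 60.3 FPKM (4613 reads) with the empty vector and 42.5 FPKM (3251 reads) with shSetdb1. Its log2 ratio was -0.50 and its read ratio 0.682 (0.652 to 0.713), within 2-fold.

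Itga3 encodes the alpha3 subunit, a laminin receptor with beta1. The gene (ENSMUSG00000001507, chromosome 11, 95044474 to 95076801, minus strand) was at 39.7 FPKM (4250 reads) with the empty vector and 57.3 FPKM (6132 reads) with shSetdb1, with log2 ratio 0.52 and read ratio 1.40 (1.34 to 1.45). The difference was below 2-fold, and 80.8% of expressed genes had a lower log2 ratio.

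The alpha6 and beta4 subunits together form the laminin receptor of hemidesmosomes, which is linked to keratin filaments, and both were higher with shSetdb1. Itgb4 (ENSMUSG00000020758, chromosome 11, 115974709 to 116008412, plus strand) was at 3.56 FPKM (468 reads) with the empty vector and 8.77 FPKM (1152 reads) with shSetdb1. Its log2 ratio was 1.10, past the 2-fold threshold, and its read ratio was 2.38 (2.14 to 2.66). It was the one expressed beta subunit among the 10 with a ratio above 1. Itga6 (ENSMUSG00000027111, chromosome 2, 71745616 to 71858416, plus strand), which can also pair with beta1, was at 7.94 FPKM (1343 reads) with the empty vector and 13.6 FPKM (2297 reads) with shSetdb1. Its log2 ratio was 0.71 and its read ratio 1.65 (1.55 to 1.77), below 2-fold.

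Itgav encodes the alphaV subunit, the partner of beta1, beta3, beta5, beta6 and beta8 in receptors for vitronectin, fibronectin and latent TGF-beta. The gene (ENSMUSG00000027087, chromosome 2, 83724397 to 83806916, plus strand) was at 6.30 FPKM (1268 reads) with the empty vector and 7.62 FPKM (1533 reads) with shSetdb1. With a log2 ratio of 0.24 and 1.17 times the reads (1.09 to 1.26), this was the smallest difference of the 8.

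Itga2 and Itgb3 were at the lower limit of the measurement. Itga2 (ENSMUSG00000015533, chromosome 13, 114833081 to 114932100, minus strand), whose product binds collagen with beta1, had 2 reads with the empty vector and 3 with shSetdb1. Itgb3 (ENSMUSG00000020689, chromosome 11, 104608000 to 104670476, plus strand), whose product pairs with alphaV or with the platelet subunit alphaIIb, had 1 and 2 reads. Both genes stood at or under a floor of 3 reads in both libraries, which is 0.0225 FPKM for Itga2 and 0.0271 FPKM for Itgb3, and no fold is given.

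**Figure D2:**
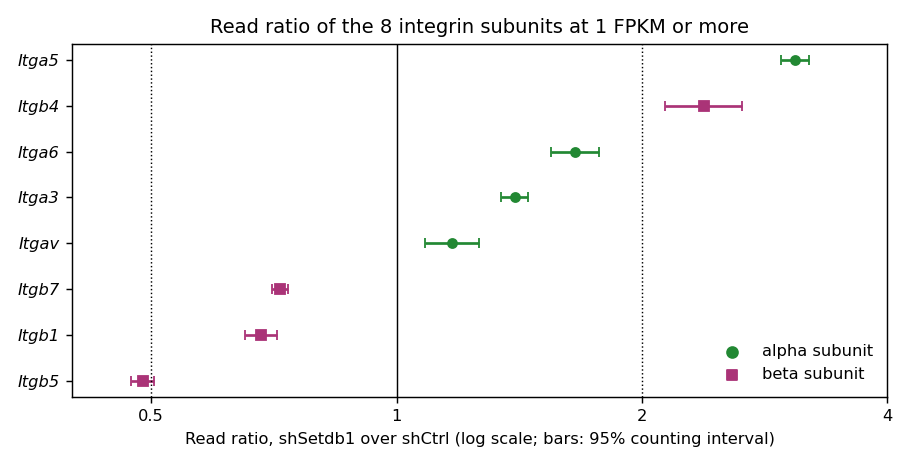
Read ratio, shSetdb1 over empty vector (log axis), of the 8 expressed integrin subunits, each over the total of its library, with 95% counting intervals as bars, alpha subunits as circles and beta subunits as squares, and dotted lines at 2-fold. All 4 alpha subunits lie above 1, from 1.17 for Itgav to 3.08 for Itga5, and of the 4 beta subunits only Itgb4 does.

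The order of the levels in FPKM differed between the libraries. FPKM is per length of the gene model, from 2770 bases for Itgb7 to 10744 for Itgav. The lengths of the transcripts present were not measured, so levels are compared between genes with that limit. With the empty vector it ran Itgb7, Itgb5, Itgb1, Itga3, Itga5, Itga6, Itgav and Itgb4, followed by Itga2 and Itgb3. With shSetdb1 Itga5 was the second highest, above Itgb5, Itga3 stood above Itgb1, and Itgb4 above Itgav. Within each library, exact Poisson intervals of neighbours in this order did not overlap among the 8 expressed genes, and they did overlap between Itga2 and Itgb3. Among the close neighbours were Itgb4 at 8.77 FPKM (8.27 to 9.29) and Itgav at 7.62 FPKM (7.24 to 8.01) with shSetdb1. These intervals cover counting error only and leave out differences between cultures and any error in the lengths.

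The summed level of the alpha subunits was larger with shSetdb1, and that of the beta subunits smaller. Over all 18 alpha genes the summed level was 90.3 FPKM with the empty vector and 193 FPKM with shSetdb1, 2.14 times as much. Over all 9 beta genes it was 577 FPKM and 395 FPKM, or 0.686 times as much. Itga5 made up 38.9% of the alpha sum with the empty vector and 58.1% with shSetdb1, and Itga3 made up 44.0% and 29.7%. Itgb7 was 60.9% of the beta sum with the empty vector and 65.9% with shSetdb1, Itgb5 27.6% and 20.3%, Itgb1 10.5% and 10.8%, and Itgb4 0.618% and 2.22%. The leading alpha gene was thus Itga3 with the empty vector and Itga5 with shSetdb1, while Itgb7 led the beta genes in both.

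**Figure D3:**
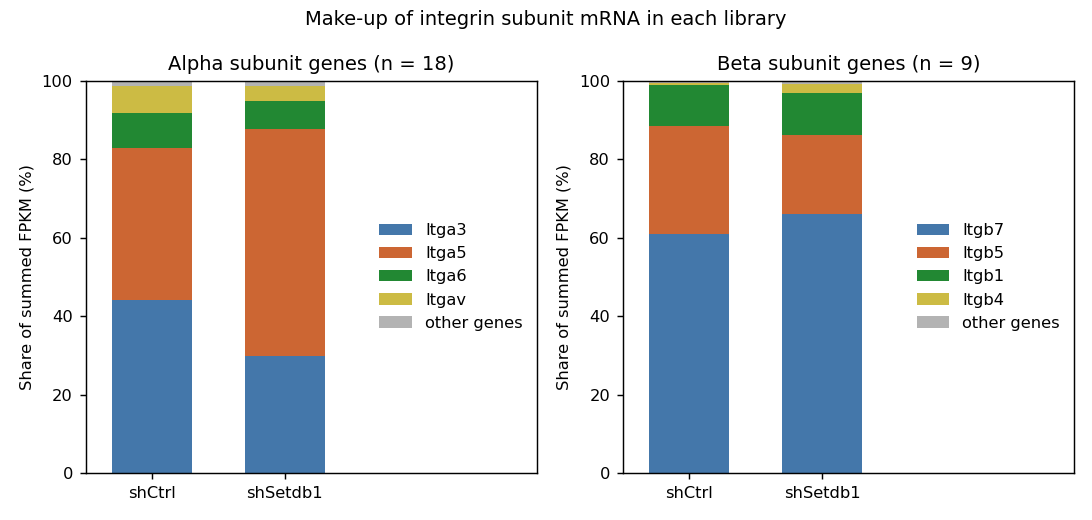
Share of each integrin gene in the summed FPKM of the 18 alpha genes (left) and of the 9 beta genes (right), in percent, in the empty-vector and shSetdb1 libraries (1 each). Itga5 takes 38.9% of the alpha sum with the empty vector and 58.1% with shSetdb1, and Itgb7 takes 60.9% and 65.9% of the beta sum.

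Known partners were then compared within each library, by levels with the same limit on length. The 12 alpha subunits that can pair with beta1 summed to 1.49 times the level of Itgb1 with the empty vector and 4.50 times with shSetdb1. Among them Itga5 was at 0.582 times the Itgb1 level with the empty vector and 2.63 times with shSetdb1. The odds ratio of their reads, shSetdb1 over empty vector, was 4.52 with an exact conditional interval of 4.26 to 4.80. For Itga3 against Itgb1 it was 2.05 (1.93 to 2.17), and for Itga5 against Itga3 it was 2.21 (2.09 to 2.34). Hence the alpha5 transcript differed more between the libraries than that of the other abundant beta1 partner, relative to counting error.

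Beta5 was far above its single partner in both libraries, with an Itgb5 level 25.3 times that of Itgav with the empty vector and 10.5 times with shSetdb1. The odds ratio was 0.417 (0.384 to 0.453). Itga6 was at 2.23 times the level of Itgb4 with the empty vector and 1.55 times with shSetdb1, an odds ratio of 0.695 (0.611 to 0.790). Itgb7 and Itgb1 were lower by about the same factor, with an odds ratio of 1.05 (1.003 to 1.11), and their level ratio was 5.82 and 6.13.

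The alpha partners of beta7 were near 0. Itga4 had 0 reads with the empty vector, where 3 reads would be 0.0115 FPKM, and 4 reads with shSetdb1. Itgae, whose product alphaE binds E-cadherin when paired with beta7, had 9 and 15 reads. Its model overlaps that of Haspin, which had 180 and 246 reads. Summed over both partners the level was 0.105 FPKM with the empty vector and 0.190 FPKM with shSetdb1, against 351 and 261 FPKM for Itgb7. Itgb2, the leukocyte beta2 subunit and a gene outside the 10, showed a similar picture at a low level. It was at 2.50 FPKM with the empty vector and 3.08 FPKM with shSetdb1, with a read ratio of 1.19 (0.949 to 1.495), while its 4 alpha partners (Itgal, Itgam, Itgax and Itgad) had 6 and 2 reads together.

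Of the 17 integrin genes outside the 10, 2 were expressed, and neither was called at 2-fold. They were Itgb2 and Itga2b, the platelet alphaIIb subunit. Itga2b reached 1 FPKM with shSetdb1 only, at 0.489 FPKM (50 reads) with the empty vector and 1.34 FPKM (137 reads) with shSetdb1. The log2 ratio of Itga2b was 0.65 and its read ratio 2.65 (1.90 to 3.74), an interval that includes 2-fold. With a pseudocount of 0.1 the log2 ratio was 1.29, past the threshold. The other 15 genes had 77 reads with the empty vector and 140 with shSetdb1 in all, none of them above 0.640 FPKM, and 5 had 0 reads in both. The highest of these was Itga7, a laminin receptor subunit named after its values were seen, with 35 and 97 reads.

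Ligands, regulators and partners of these receptors came from 9 lists of 95 different genes in all. Of the 69 expressed, 7 were called higher (Tgfb1, Dok1, Lims2, Parvb, Cd9, Cd82 and Bsg) and 4 lower (Thbs1, Ctgf, Tns3 and Slc3a2), and their median log2 ratio was 0.17. These counts, and those of each list below, stand beside 6.81% of all expressed genes called higher and 4.85% called lower.

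Laminin chains are the ligands of alpha3beta1, alpha6beta1 and alpha6beta4. Of 11 chains 5 were expressed, and 0 of these were called, beside 11.7% of all expressed genes in either direction. Lamb2 was at 25.2 FPKM with the empty vector and 34.6 FPKM with shSetdb1, the highest log2 ratio of the chains (0.44), and Lamb1 was at 31.7 and 24.2 FPKM, the lowest (-0.37). The alpha5 chain Lama5 was at 84.0 FPKM with the empty vector and 87.3 FPKM with shSetdb1. Its log2 ratio of 0.05 turned to -0.0065 under upper-quartile scaling. The median of the 5 was 0.06.

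The matrix and secreted ligands read by alpha5beta1 and the alphaV receptors went both ways, with 1 of 8 expressed genes called higher and 2 lower and a median of 0.21. Fn1, the fibronectin gene, was at 381 FPKM with the empty vector and 534 FPKM with shSetdb1 (log2 ratio 0.49). It is named here after its values were seen, as the ligand of alpha5beta1. Tgfb1, whose latent form is bound by alphaV integrins, was at 14.2 FPKM with the empty vector and 38.2 FPKM with shSetdb1, a log2 ratio of 1.37. Spp1, which encodes osteopontin, was at 442 and 799 FPKM (0.85). Lower with shSetdb1 were Thbs1, the thrombospondin-1 gene, from 1366 to 319 reads (-1.77), and Ctgf, a matricellular growth factor, from 21.2 to 9.22 FPKM (-1.12). Vtn, the vitronectin gene and named after its values were seen, had 21 reads in each library.

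Of 10 collagen genes that alpha2beta1 and related receptors can bind, 7 were expressed and 0 called, with a median of 0.37. The basement membrane chain Col4a2 was at 22.0 FPKM with the empty vector and 44.3 FPKM with shSetdb1 (log2 ratio 0.98), and its model overlaps that of Col4a1. Col6a1 was at 2.68 and 5.38 FPKM (0.79). The fibrillar chains Col1a2, at 140 and 94.1 FPKM (-0.56), and Col3a1, at 2.68 and 0.887 FPKM (-0.96), were lower. The read ratio of Col3a1 was 0.320 (0.266 to 0.383), past 2-fold. With a pseudocount of 0.1 the log2 ratio was -1.50 for Col3a1 and 1.005 for Col4a2, both past the threshold. Among 5 cell-surface ligands 1 was expressed, Vcam1, the counter-receptor of alpha4 integrins, at 6.50 and 6.96 FPKM, with a read ratio of 1.04 (0.952 to 1.13). Madcam1, the gut-homing ligand of alpha4beta7, had 0 reads with the empty vector and 3 with shSetdb1, and is named after its values were seen.

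The next list held proteins that bind the tails and switch integrins on or off. Of 12 such genes 10 were expressed, with a median of 0.07. At 2-fold 1 was called higher and 0 lower, beside 6.81% and 4.85% of all expressed genes. The interval of the read ratio lay above 1 for 3 of the 10 and below 1 for 3, beside 35.2% and 40.6% of all expressed genes. Dok1, an adaptor that competes with talin for the beta tail, was at 32.4 FPKM with the empty vector and 69.9 FPKM with shSetdb1 (log2 ratio 1.09). Rap1b, a small GTPase that promotes activation, was at 29.8 and 46.6 FPKM (0.63). Talin 1 (Tln1) was at 129 and 107 FPKM (-0.27), and Itgb1bp1, an inhibitor that binds the beta1 tail, at 9.81 and 7.85 FPKM (-0.29). The models of Tln1 and Itgb1bp1 overlap other genes with reads.

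Among 22 adaptors and kinases of the adhesion plaque, 21 were expressed, 2 of them called higher and 1 lower, with a median of 0.17. The largest difference was that of Lims2, which encodes PINCH2, a partner of integrin-linked kinase. It was at 5.15 FPKM (253 reads) with the empty vector and 34.6 FPKM (1698 reads) with shSetdb1, with log2 ratio 2.53 and read ratio 6.49 (5.69 to 7.44). Its paralog Lims1 (PINCH1), named after its values were seen, went the other way, from 5.14 to 2.30 FPKM, a read ratio of 0.433 (0.367 to 0.511). Similarly Parvb (beta-parvin) was at 39.1 and 84.4 FPKM (log2 ratio 1.09), and its paralog Parva (alpha-parvin), also named after its values were seen, at 24.7 and 19.6 FPKM (-0.32). PINCH and parvin proteins bind integrin-linked kinase in 1 complex. The kinase gene Ilk, likewise named after its values were seen, was at 0.914 FPKM with the empty vector and 1.30 FPKM with shSetdb1, and its model overlaps those of Taf10 and Rrp8, which both have more reads. Tns3, a tensin that binds beta tails, was at 27.5 and 10.5 FPKM (-1.31), and the docking protein Nedd9 at 10.2 and 4.80 FPKM (-0.96).

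Of 4 hemidesmosome partners of alpha6beta4, 3 were expressed and 0 called. The tetraspanin Cd151 was at 93.0 FPKM with the empty vector and 145 FPKM with shSetdb1 (log2 ratio 0.63). Plectin (Plec), which ties beta4 to keratins, was at 59.2 and 76.3 FPKM (0.36), and dystonin (Dst) at 3.48 and 1.46 FPKM (-0.86). The read ratio of Dst was 0.406 (0.379 to 0.436), past 2-fold, and its log2 ratio was -1.20 with a pseudocount of 0.1. The models of Plec and Cd151 overlap other genes with reads.

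Membrane proteins that sit beside integrins had a median of 0.53 over 8 expressed genes, with 3 called higher and 1 lower. Bsg (basigin) was at 367 FPKM with the empty vector and 1150 FPKM with shSetdb1, a log2 ratio of 1.65. The tetraspanins Cd82, at 7.89 and 25.9 FPKM (1.60), and Cd9, at 124 and 316 FPKM (1.34), were higher too. Slc3a2, the CD98 heavy chain that binds beta tails and carries amino acid transporters, was at 204 FPKM with the empty vector and 80.5 FPKM with shSetdb1 (-1.33). Plaur, the urokinase receptor, was at 79.7 and 53.6 FPKM (-0.56). The 6 expressed of 9 genes of integrin uptake and recycling were within 2-fold. Among all expressed genes, 11.7% were called in either direction. All 6 had log2 ratios above 0, from 0.06 for Arf6 and 0.15 for Gga3 to 0.41 for Rab11a and 0.53 for Rab4a. The median of the 6 was 0.35, beside -0.00039 for all expressed genes. The read ratio was also above 1 for all 6, beside 46.9% of all expressed genes. Its interval lay above 1 for 4, beside 35.2%, and included 1 for Arf6 (0.970 to 1.05) and Gga3 (0.996 to 1.20). Under upper-quartile scaling the log2 ratio of Arf6 was 0.0030. The model of Gga3 overlaps that of Mrps7, which has more reads.

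**Figure D4:**
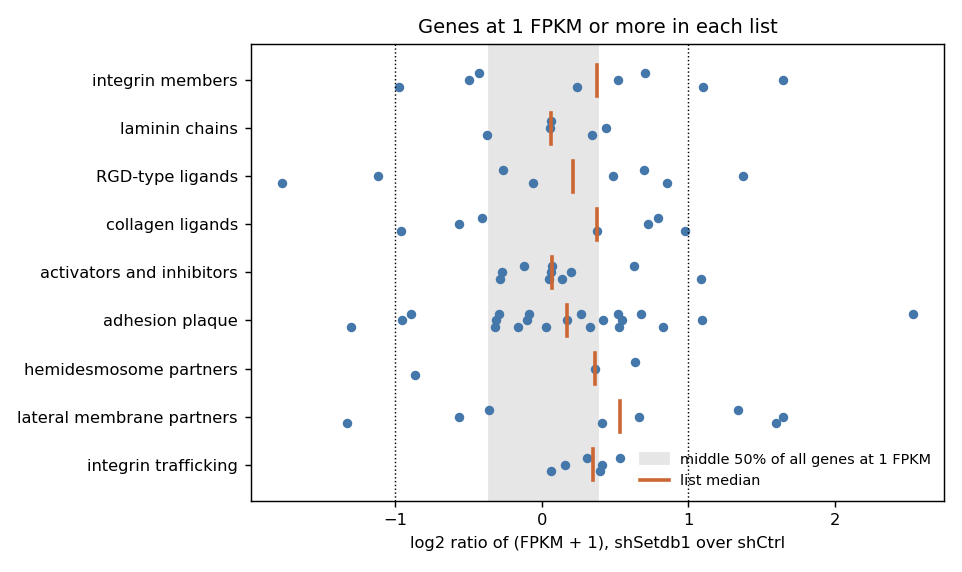
Log2 ratio of (FPKM + 1), shSetdb1 over empty vector, of each expressed gene (points) in the integrin list and 8 related lists, with list medians as bars, dotted lines at 2-fold and the middle 50% of all expressed genes in grey. The integrin subunits run from -0.98 to 1.65, and Lims2 in the adhesion plaque list has the highest ratio shown, 2.53.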

How the data were processed

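The authors deposited 1 table of FPKM values with gene model lengths, per the file headers. CASAVA, HISAT2, featureCounts 1.5.0-p3 and GRCm38 are named in the submitters' processing notes. The strand setting and the treatment of multi-mapped reads are not given in the sources used here. Columns were matched to samples by library name. FPKM times length was a whole multiple (within 0.01) of 1 step for 100% of values above 0, which gave reads at a common depth of 18731117. All 27 integrin models had the coordinates of GENCODE M21 (GRCm38). So did 145 of all 149 genes looked up, the exceptions being Lims2, Acta2, Csf1r and Epcam.

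Log2 ratios of (FPKM + 1) were computed with a pseudocount of 1, a minimum of 1 FPKM in at least 1 library and a 2-fold threshold. Intervals are exact Clopper-Pearson, conditional odds-ratio or Poisson intervals. Calculations were tested on simulated data. The members and gene lists were chosen with earlier results of these data known. Named genes were the 10 subunits, other expressed integrins and, in each list, every called gene and the 2 highest and 2 lowest ratios. Alternatives were a pseudocount of 0.1, 4 scalings, other thresholds and filters, means, protein-coding genes and read shares. The planned comparison of subunit proteins was not made. Tools were scipy 1.17.1, numpy 2.4.6, matplotlib 3.10.9 and pandas 2.3.3 under Python 3.11.15.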

Additional observations from a re-analysis of the deposited data

How the results depend on the processing

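Each of the 8 expressed subunits kept its direction under the pseudocount of 0.1 and the 4 scalings, which shifted the log2 ratios by between -0.0615 (upper quartile) and 0.0025 (median ratio). The count of 2 subunits called higher was the same under all alternatives that bear on it except the 1.5-fold threshold, where it was 3, and the count called lower went from 0 to 1 under upper-quartile, own-total and TPM scaling and at 1.5-fold. The median of 0.38 was 0.13 without a filter, which adds Itga2 and Itgb3 near 0, and the mean was 0.29. Over all genes, 1134 were higher and 870 lower with a pseudocount of 0.1, and 1804 and 1523 at 1.5-fold. In the related lists 8 were lower with the pseudocount of 0.1, and 17 were higher and 8 lower at 1.5-fold. As shares of reads not divided by length, Itga5 was 31.7% of the alpha genes with the empty vector and 50.3% with shSetdb1, and Itgb7 was 53.5% and 57.7% of the beta genes. Of 230 alternative values of 46 single genes, 193 stayed within counting error, 36 moved and 1 reversed, Lama5 at -0.0065 under upper-quartile scaling. Of 63 alternative medians of the related lists, 14 moved and 0 changed sign, though several shrank: without a filter, which adds genes near 0, laminin chains and RGD-type ligands were at 0, collagens at 0.0293, hemidesmosome partners at 0.23, trafficking genes at 0.15 and the adhesion plaque at 0.10. Under upper-quartile scaling laminin chains were at 0.00032, activators and inhibitors at 0.0124, cell-surface ligands at 0.0319 and the adhesion plaque at 0.11, and with the filter at 5 FPKM collagens were at 0.55 and the adhesion plaque at 0.0983. Each scaling multiplied all genes of a library by a single factor. A single-gene value was labelled moved when it left the counting interval around its main value, which is narrow for genes with many reads. For other moves with no reason given, the cause was not tested. No paired analysis was possible because there was 1 library a group, and none could be left out. At this depth 1 FPKM was 51.9 reads for the shortest subunit model and 201 for the longest.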
